A study of Saccharomyces cerevisiae with 13 samples.

Results

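The 36 nuclear-encoded genes described here encode subunits of the mitochondrial respiratory complexes and of the ATP synthase of the budding yeast Saccharomyces cerevisiae. They were taken by name and grouped by complex into 3 NADH dehydrogenases, 4 subunits of succinate dehydrogenase, 9 of the cytochrome bc1 complex, 7 of cytochrome c oxidase and 13 of the ATP synthase. The platform annotation named a probe set for all 36, and where a gene had several the brightest was used. Of the 36, 35 were among the 5102 genes bright enough to be tested, the exception being NDE2.

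Transcript signals came from 13 one-colour Affymetrix arrays of total RNA from yeast cultures. They comprised 5 spermidine-treated samples and 3 spermine-treated samples, both labelled as carrying deletions of SPE3 and FMS1, and 5 control samples whose labels give no genotype. SPE3 encodes spermidine synthase and FMS1 a polyamine oxidase, and the series title calls the mutant polyamine-deficient. No source used here gives the doses or the treatment times.

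In yeast respiration, NADH dehydrogenases and succinate dehydrogenase pass electrons to coenzyme Q, the cytochrome bc1 complex passes them on to cytochrome c, and cytochrome c oxidase passes them to oxygen. The bc1 complex and the oxidase pump protons across the inner membrane, and the ATP synthase uses the return flow to make ATP. Budding yeast lacks the proton-pumping NADH dehydrogenase of mammals and uses single-protein enzymes in its place. Most subunits are encoded in the nucleus, while the catalytic core of the oxidase, cytochrome b and the membrane rotor of the ATP synthase are encoded in the mitochondrial genome. Glucose represses transcription of many of these genes.

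The median signal of an array lay between 124.9 and 161.5, and replicate arrays correlated at r = 0.932 to 0.984, taken over genes, whose values are not independent. The deleted genes were low on all 13 arrays, controls included, at 0.570 to 13.8 for SPE3 and 1.10 to 8.10 for FMS1. Since no label ties the arrays to separate cultures, the p-values cover only the variation among these arrays, part of which may be technical, and the number of arrays limits the precision. Controls 2 and 3 and spermine 1 stood apart in 25 general stress genes. The median of these genes lay 0.46 above the control mean on the log2 scale on spermine 1, against -1.07 and -0.50 on spermine 2 and 3, and 1.06 and 0.89 above it on controls 2 and 3, against -0.73, -0.42 and -0.62 on controls 1, 4 and 5. Many results are therefore given both with and without these 3 arrays, and the others with all arrays only. The fit without them rests on controls 1, 4 and 5, spermine 2 and 3 and all 5 spermidine arrays. Of the stress genes, 14 of 25 fell with spermidine and 0 rose, where 14.7% of all genes tested fell and 17.9% rose. Their median log2 difference was -1.40. Without the 3 arrays 12 of them fell, against 13.8% of all genes, with a median of -0.78. The arrays were set apart by these same genes, so a smaller difference without controls 2 and 3 was fixed in advance. The part of the stress genes in the results below was not tested.

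With spermidine, 15 of the 35 genes tested fell and 0 rose (limma over 5102 genes, Benjamini-Hochberg adjusted p under 0.05). Of all genes tested, 14.7% fell and 17.9% rose. The share of members that fell was 42.9%. An unadjusted p under 0.05 was found for 19 of 35, against 43% of all genes. The median log2 difference of the members was -0.32, beside 0.02 for all genes. By complex, 6 of 9 bc1 subunits fell, 3 of 7 oxidase subunits, 5 of 13 ATP synthase subunits and 1 of the 2 NADH dehydrogenases tested, and 0 of 4 succinate dehydrogenase subunits. The median log2 difference was -0.80 for the bc1 complex, -0.71 for the NADH dehydrogenases, -0.32 for the oxidase, -0.28 for the ATP synthase and 0.18 for succinate dehydrogenase. The last moved most with single arrays, to 0.04 without control 4, 0.05 without spermidine 1, 0.08 without spermidine 5, 0.10 without control 5, 0.30 without spermidine 2, 0.27 without control 1 and 0.33 without spermidine 3. Falls of more than 2-fold were measured for 3 genes, CYT1, NDE1 and QCR10. With spermine, 0 of 35 were called in either direction. RNA from a culture cannot tell lower levels in every cell from fewer cells with high levels.

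**Figure D1:**
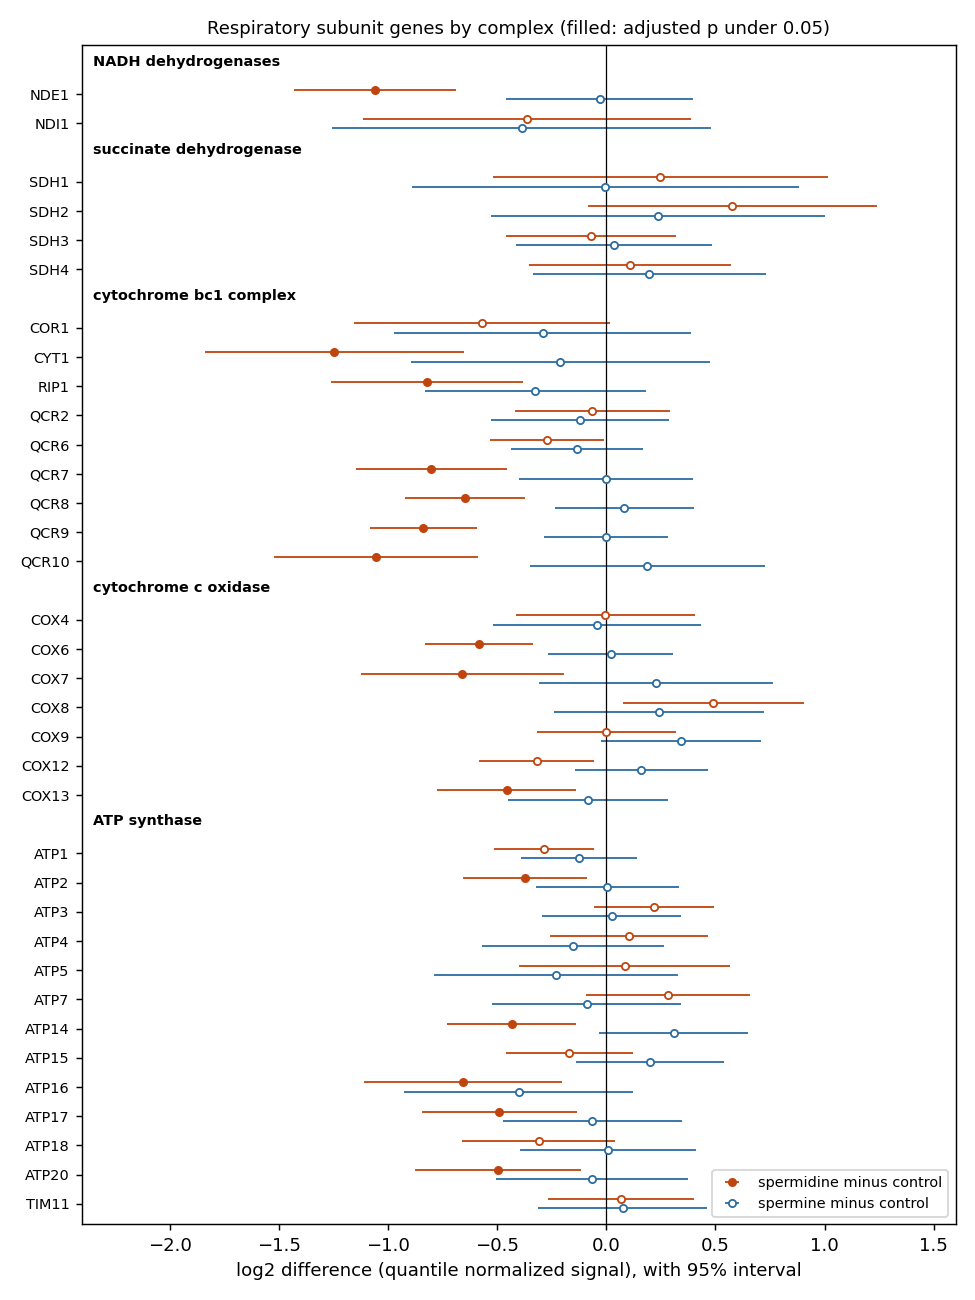
Log2 difference of each of the 35 tested genes (x axis, quantile normalized signal) by complex, for spermidine minus control (upper marker) and spermine minus control (lower marker), with 95% intervals and filled markers where the adjusted p was under 0.05. The filled markers are the 15 falls with spermidine, 6 of them in the bc1 complex, and no spermine marker is filled.

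The number of falls depended on single arrays. Without control 2 or without spermidine 3, 9 genes fell. Without control 2, control 3 and spermine 1 together, 9 of 35 fell, against 13.8% of all genes in that fit, and 0 rose. These 9 were NDE1, CYT1, RIP1, QCR7, QCR8, QCR9, QCR10, COX6 and ATP20, so the 6 bc1 genes were called both with and without these arrays. The ranges of the spermidine and control arrays did not overlap for 6 of the 35, all lower with spermidine, where 8.96% of all genes had a lower, non-overlapping range.

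In the cytochrome bc1 complex 6 of 9 genes fell, and 6 or 7 did in each fit with 1 array left out. Its catalytic electron carriers encoded in the nucleus are cytochrome c1, the product of CYT1, and the Rieske iron-sulfur protein, the product of RIP1. CYT1 signals were 743, 482, 347, 578 and 573 on the spermidine arrays, 1335, 738 and 1266 on the spermine arrays and 1399, 2003, 1684, 695 and 980.4 on the control arrays. Every spermidine array but spermidine 1 lay below every control, and spermidine 1 lay above control 4 alone. The mean was 545 ± 145 with spermidine and 1352 ± 526 in controls (SD, n = 5 each), and CYT1 fell 2.37-fold (log2 -1.25 ± 0.28, SE, limma adjusted p = 0.00324), and the log2 difference was -0.89 without the 3 arrays (adjusted p = 0.0274). RIP1 signals were 2066, 1488, 1017, 1640.2 and 1927 on the spermidine arrays, 1818, 1967 and 2978 on the spermine arrays and 3111, 3318, 3088, 1927 and 2579 on the control arrays. The groups overlapped between spermidine 1 and control 4. RIP1 fell 1.77-fold (log2 -0.82 ± 0.21, limma adjusted p = 0.00698). Without the 3 arrays its log2 difference was -0.67, just under the threshold (limma adjusted p = 0.0476). The array also holds a control probe set for RIP1, which did not enter the test. It read 871, 505, 394, 677 and 690.3 on the spermidine arrays, 1167, 1041 and 1483 on the spermine arrays and 1663, 1592, 2079.5, 819 and 1281 on the control arrays, a log2 difference of -1.22 with spermidine (exact two-sided permutation test, p = 0.0159, n = 5 each, smallest possible p = 0.00794).

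The genes of 4 small subunits, QCR7, QCR8, QCR9 and QCR10, fell, while that of QCR6, described below, was not called. QCR9 signals were 1301, 1194, 1044, 1319 and 1399 on the spermidine arrays, 2181, 1855 and 2557 on the spermine arrays and 2198, 2325, 2148, 2099.9 and 2265 on the control arrays. The spermidine arrays all lay below the lowest control, and the spermine arrays lay on both sides of the controls. The fall of 1.79-fold had the lowest adjusted p of all members (log2 -0.84 ± 0.11, limma adjusted p = 7.10e-05). QCR10 signals were 579, 428, 358, 834 and 545 on the spermidine arrays, 1399, 1102 and 1226 on the spermine arrays and 1234, 1217, 1438, 687 and 1117 on the control arrays. Only spermidine 4 reached into the control range, above control 4. QCR10 fell 2.08-fold (log2 -1.05 ± 0.22, limma adjusted p = 0.00196, and log2 -0.88 without the 3 arrays).

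QCR7, whose product contacts cytochrome b from the matrix side, had signals of 3111, 2865, 2288, 2917 and 3331 on the spermidine arrays, against 3531, 5760.0, 5838, 5238 and 5533 on the control arrays. The groups did not overlap, the gap being smallest between spermidine 5 and control 1. QCR7 fell 1.74-fold (log2 -0.80 ± 0.16, limma adjusted p = 0.00163). QCR8 signals were 1583, 1624, 1517, 1618 and 1599.6 on the spermidine arrays, against 2067, 2584, 2762, 2339 and 2272 on the control arrays, again without overlap (log2 -0.65 ± 0.13, limma adjusted p = 0.00148). A second, dimmer probe set annotated to QCR8 read 86.7, 68.6, 67.6, 92.6 and 96.6 on the spermidine arrays and 86.2, 49.6, 63.6, 88.1 and 98.5 on the control arrays, a log2 difference of 0.15 (exact two-sided permutation test, p = 0.556, n = 5 each). With both probe sets averaged, QCR8 was not called, at -0.25 on the log2 scale.

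The other 3 bc1 genes were not called. COR1 and QCR2 encode the large core proteins on the matrix side, and QCR6 an acidic subunit near cytochrome c1. QCR2 signals were 2008, 1392, 1193, 1607 and 1779.7 on the spermidine arrays, against 1634, 1717, 1752, 1375 and 1641 on the control arrays, and the spermidine arrays lay above, within and below the controls. Its log2 difference was -0.06 ± 0.17 (limma adjusted p = 0.797) with a 95% interval of -0.42 to 0.29, which does not overlap that of QCR9, -1.08 to -0.59. The difference between these genes was not tested. QCR6 had a log2 difference of -0.27 (interval -0.53 to -0.01, adjusted p = 0.105), with signals of 995 to 1337 with spermidine and 1162 to 1594 in controls, which overlap. COR1 signals were 948, 257, 534, 617 and 579.6 on the spermidine arrays, against 907, 1159.9, 853, 584 and 665 on the control arrays. Spermidine 1 lay above the other spermidine arrays and spermidine 2 below them, at log2 deviations from the control mean of 0.18 and -1.54. The others lay at -0.54 to -0.47. COR1 had a log2 difference of -0.57 with all arrays (limma adjusted p = 0.128). It was called only without spermidine 1, at -0.75 on the log2 scale.

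**Figure D2:**
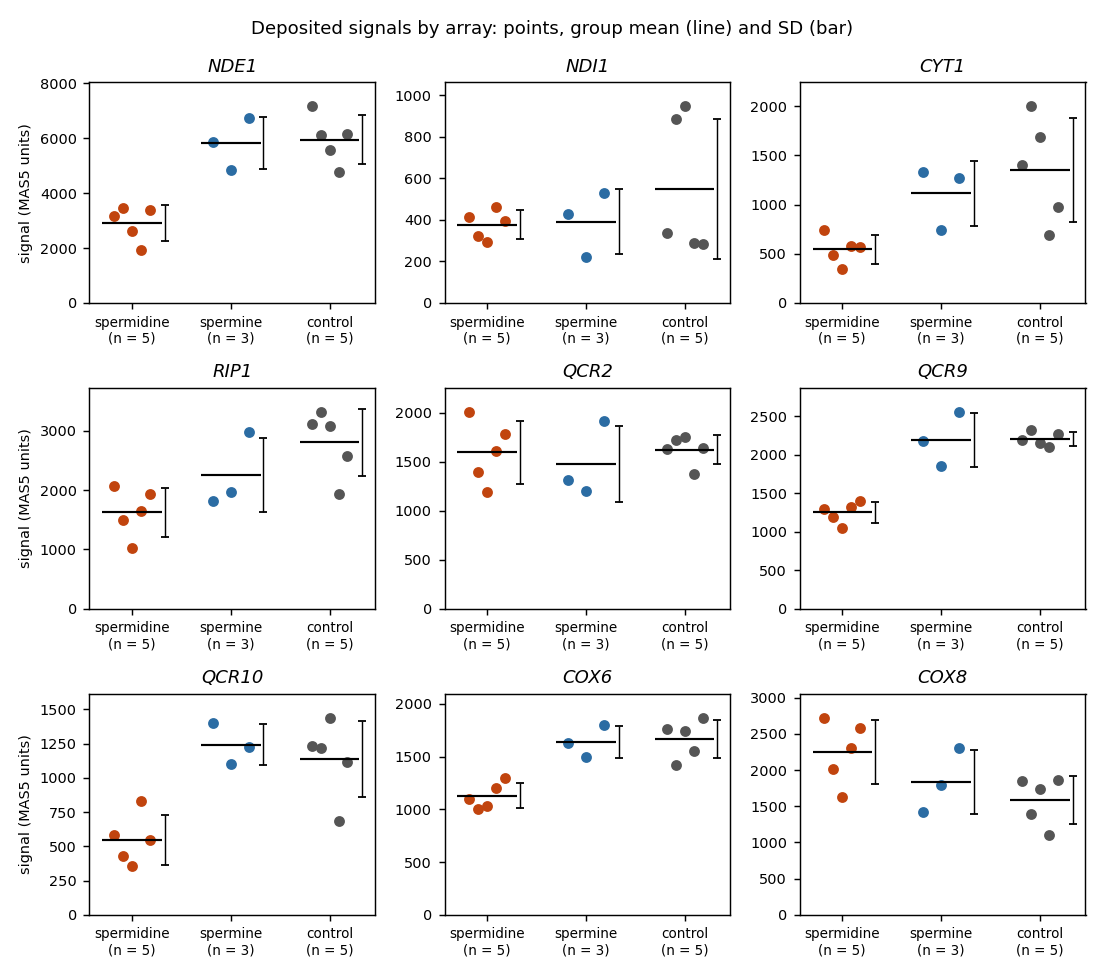
Deposited signals (y axis, linear MAS5 units, from 0) of 9 member genes on each array, with the group mean as a line and the SD as a bar, for spermidine, spermine and control arrays. The spermidine arrays lie below all controls for NDE1, QCR9 and COX6, while QCR2 and COX8 overlap between all groups.

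Among the NADH dehydrogenases, NDE1 encodes the main external enzyme, which oxidises cytosolic NADH at the outer face of the inner membrane. Its signals were 3174, 3469, 2626, 1919 and 3389 on the spermidine arrays, 5864, 4860.5 and 6739.9 on the spermine arrays and 7178, 6119, 5582, 4759 and 6139 on the control arrays. All 5 spermidine arrays lay below all controls and all spermine arrays. The mean was 2915 ± 647 with spermidine and 5955 ± 884 in controls (SD, n = 5 each), a fall of 2.08-fold (log2 -1.06 ± 0.17, SE, limma adjusted p = 0.000315), and the log2 difference without the 3 arrays was -1.06. NDE2 encodes the second external enzyme. Its signals of 32.7, 19.1, 15.1, 27.1 and 6.25 with spermidine, 17.2, 5.12 and 5.77 with spermine and 8.19, 59.4, 38.8, 5.33 and 4.76 in controls were near the background level, the 95th percentile of 19 non-yeast probe sets, which was 17.74 with spermidine, 19.43 with spermine and 16.04 in controls. The highest values, 59.4 and 38.8, were those of controls 2 and 3. NDE2 was left out of the test as too dim.

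NDI1 encodes the internal NADH dehydrogenase, which faces the matrix. Its signals were 414, 319.8, 292, 464 and 392 on the spermidine arrays, 427, 219 and 527 on the spermine arrays and 335, 883, 948, 288 and 285 on the control arrays. Controls 2 and 3 lay far above every other array, and controls 1, 4 and 5 lay within or just below the range of the spermidine arrays. The log2 difference with spermidine was -0.36 ± 0.35 (limma adjusted p = 0.456) over all arrays and 0.28 (adjusted p = 0.403) without the 3 arrays that stand apart, so that its direction turned with them. It was called in neither fit.

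In cytochrome c oxidase, 3 of the 7 small subunits around the mitochondrially encoded core fell and the others were not called. The count was 1 without control 2, without spermidine 3 or without the 3 arrays that stand apart, and 2 without control 1, control 3 or spermidine 5. COX6 signals were 1101, 1008, 1034, 1205 and 1297 on the spermidine arrays, 1624, 1493 and 1798 on the spermine arrays and 1759, 1416, 1747, 1557 and 1867 on the control arrays. The spermidine arrays all lay below the lowest control and the lowest spermine array. COX6 fell (log2 -0.58 ± 0.12, limma adjusted p = 0.00146, and log2 -0.63 without the 3 arrays). COX7 signals were 2615, 1128, 1105, 1703 and 1912 on the spermidine arrays, 2386, 3106 and 3725 on the spermine arrays and 3136, 2682, 2183, 2355 and 2332 on the control arrays. Spermidine 1 lay within the controls and the other 4 spermidine arrays below them. COX7 fell 1.58-fold (log2 -0.66 ± 0.22, limma adjusted p = 0.0309), and the call was lost without the 3 arrays (log2 -0.70, adjusted p = 0.059). With these arrays fitted as a block of their own the call was kept (log2 -0.75, limma adjusted p = 0.0231). COX13 signals were 2099, 2176, 1842, 2326 and 1914 on the spermidine arrays, against 2569, 3366, 3408, 2249 and 2355 on the control arrays. Spermidine 4 lay above control 4 and below control 5, and the other spermidine arrays lay below all controls. COX13 was called with all arrays (log2 -0.46 ± 0.15, adjusted p = 0.0294) and not without the 3 arrays, when its log2 difference was -0.26 (adjusted p = 0.163). Nor was COX13 called with these arrays as a block (log2 -0.28, limma adjusted p = 0.0868).

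COX8 stood at the other end, with signals of 2721, 2015, 1623, 2306 and 2583 on the spermidine arrays, 1417, 1793 and 2303 on the spermine arrays and 1852, 1397, 1738, 1099 and 1863 on the control arrays. Of the spermidine arrays, 4 lay above every control, and spermidine 3 lay within them. The log2 difference was 0.49 ± 0.19 with an adjusted p of 0.0657 in limma, which misses the threshold, and it passed without spermidine 3, at 0.61. With spermine the log2 difference of COX8 was 0.24 ± 0.22. COX4 and COX9 had values of 0.00 and 0.00 on the log2 scale with 95% intervals of -0.41 to 0.41 and -0.32 to 0.32. Deposited signals ran from 991 to 1581 with spermidine and 955 to 1556 in controls for COX4, and from 954 to 1352 with spermidine and 875 to 1295 in controls for COX9. Both ranges of each gene overlap almost wholly. COX12 had -0.32 (limma adjusted p = 0.0596) and passed in 3 of the 26 alternative fits.

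Of the 13 ATP synthase genes 5 fell, each by less than 2-fold. This count rested on single arrays: it was 0 without control 5, 1 without control 2 or without spermidine 3, 2 without control 1, control 3, spermidine 2, spermidine 4 or spermidine 5, and 3 without spermine 3 or spermidine 1. It was 1 without the 3 arrays that stand apart. In the catalytic head, ATP1 and ATP2 encode the alpha and beta subunits. ATP1 signals were 2781, 2534, 2691, 2599 and 2663 on the spermidine arrays, against 3299, 3714, 3046, 2800.2 and 3242 on the control arrays. All spermidine arrays lay below all controls, although the smallest gap was that between spermidine 1 and control 4, and the log2 difference of -0.28 ± 0.11 missed the threshold (limma adjusted p = 0.0544). ATP2 was called with a log2 difference of -0.37 ± 0.13 (limma adjusted p = 0.0441), a call lost in 16 of 26 alternative fits. Its signals were 2358, 1725, 2221, 1756 and 2457 on the spermidine arrays, against 2575, 3023, 2673, 2369 and 2485 on the control arrays, where spermidine 5 lay above control 4 and the other spermidine arrays lay below all controls. In the central stalk, ATP16, the delta subunit, had signals of 1013, 1643, 1223, 1046 and 851 on the spermidine arrays, 1881, 1203 and 972 on the spermine arrays and 1616, 1865, 2109, 1239 and 2022 on the control arrays. Spermidine 2 lay among the controls and control 4 among the spermidine arrays. ATP16 fell 1.57-fold (log2 -0.66 ± 0.21, limma adjusted p = 0.0286), a call lost without the 3 arrays (log2 -0.53, adjusted p = 0.0875). It was also lost with these arrays as a block (log2 -0.47, limma adjusted p = 0.0916). The gamma and epsilon subunit genes ATP3 and ATP15 were not called, at 0.22 and -0.17. ATP3 signals ran from 2306 to 3124 with spermidine and 1969 to 2800.0 in controls, and those of ATP15 from 1082 to 1643 with spermidine and 1228 to 1712 in controls.

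In the peripheral stalk, ATP14 fell 1.35-fold (log2 -0.43 ± 0.14, limma adjusted p = 0.0268), a call lost in 8 of 26 alternative fits. Among them were the fit with both its probe sets averaged and that without the 3 arrays (log2 -0.43, adjusted p = 0.0735). The call was kept with these arrays as a block (log2 -0.45, limma adjusted p = 0.0324). ATP14 signals were 1140.5, 925, 840.2, 1059.7 and 1148 on the spermidine arrays, against 1739, 1293, 1402, 1048 and 1379.8 on the control arrays. Spermidine 1, 4 and 5 overlapped control 4. Its second probe set read 1353, 869.6, 920.4, 1032 and 1224 on the spermidine arrays and 1455, 1311, 1243, 974 and 1105 on the control arrays, a log2 difference of -0.18 (exact two-sided permutation test, p = 0.262, n = 5 each). The other stalk genes ATP4, ATP5 and ATP7 were not called, at 0.11, 0.08 and 0.28, and ATP7 had the highest value of the 13. ATP7 signals were 538, 345, 516, 816 and 665 on the spermidine arrays, against 471, 446, 474, 406 and 491 on the control arrays, with spermidine 2 below all controls and the other 4 spermidine arrays above them. ATP7 passed the test only without spermidine 2, at 0.43. ATP4 signals were 761.5 to 993 with spermidine and 674 to 967 in controls, and ATP5 signals 589 to 805 with spermidine and 357 to 923 in controls, so the control range was the wider for ATP5. In the membrane sector, ATP17 and ATP20 were called, with log2 differences of -0.49 ± 0.17 (limma adjusted p = 0.0355) and -0.50 ± 0.18 (adjusted p = 0.0449). Without the 3 arrays ATP17 lost its call (log2 -0.52, adjusted p = 0.0525) and ATP20 kept it (log2 -0.62, adjusted p = 0.0267). With these arrays as a block the reverse held for ATP17 (log2 -0.53, limma adjusted p = 0.035) and ATP20 (log2 -0.53, adjusted p = 0.0526). Over the 26 alternative fits, however, the ATP20 call was lost in 13, among them each fit without 1 of the 5 spermidine arrays, and the ATP17 call in 8. ATP20 signals were 145, 137, 153, 163 and 139.5 on the spermidine arrays, against 226, 211, 157, 163 and 297 on the control arrays. Spermidine 4 lay above control 3, and the other spermidine arrays lay below all controls. TIM11, which with ATP20 takes part in dimer formation of the synthase, had a log2 difference of 0.07 (interval -0.27 to 0.40), with signals of 1513 to 2677 with spermidine and 1806 to 2116 in controls. ATP18 had a log2 difference of -0.31 (limma adjusted p = 0.163), and spermidine 2, at 2777, stood above the other spermidine arrays, at 1574 to 1871.5. Without spermidine 2, ATP18 was called lower, at -0.45 on the log2 scale (adjusted p = 0.0278).

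Succinate dehydrogenase, which joins the tricarboxylic acid cycle to the chain, had 0 of 4 genes called and values of both signs. SDH2, the iron-sulfur subunit, had the highest log2 difference of all members, 0.58 ± 0.31 (limma adjusted p = 0.169, 95% interval -0.09 to 1.24). Its signals were 1012, 572, 479, 1031 and 1042 on the spermidine arrays, 511, 475 and 1019 on the spermine arrays and 757, 566, 605, 249 and 601 on the control arrays, and control 4 lay far below every other array. SDH1, the flavoprotein, had signals of 789, 311, 308, 573 and 797 on the spermidine arrays, 325, 295 and 879.7 on the spermine arrays and 635, 440.4, 617, 265 and 319 on the control arrays. Its groups overlapped throughout, with a log2 difference of 0.25 ± 0.36. The membrane anchors SDH3 and SDH4 had -0.07 and 0.11. SDH3 signals were 1203, 978, 736, 1114 and 960.3 on the spermidine arrays, 1051, 1011 and 1092 on the spermine arrays and 1054, 1260.0, 1404, 721 and 858 on the control arrays, and SDH4 signals were 1841, 1085, 927, 1643 and 1532 on the spermidine arrays, 1054, 1525 and 1674 on the spermine arrays and 1463, 1619, 1365, 907 and 1061 on the control arrays. In both, controls 4 and 5 were the lowest controls and spermidine 3 the lowest spermidine array. Without the 3 arrays the 4 values were 0.43 for SDH1, 0.69 for SDH2, 0.18 for SDH3 and 0.28 for SDH4, again with 0 called.

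These 4 genes varied together from array to array within the groups. After subtraction of each group's mean, the median correlation of the 6 pairs over 13 arrays was 0.76, highest for SDH1 with SDH2 at 0.88. The same median was 0.50 for the 36 pairs within the bc1 complex, 0.37 for the 21 pairs of the oxidase and 0.15 for the 78 pairs of the ATP synthase, beside 0.01 for all pairs of genes tested. The 1 pair of NADH dehydrogenases had 0.17. Over all 142 pairs within a complex the median was 0.32, beside 0.34 for pairs of members from different complexes. These correlations describe arrays that share 1 normalization and are few, so no p is attached.

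**Figure D3:**
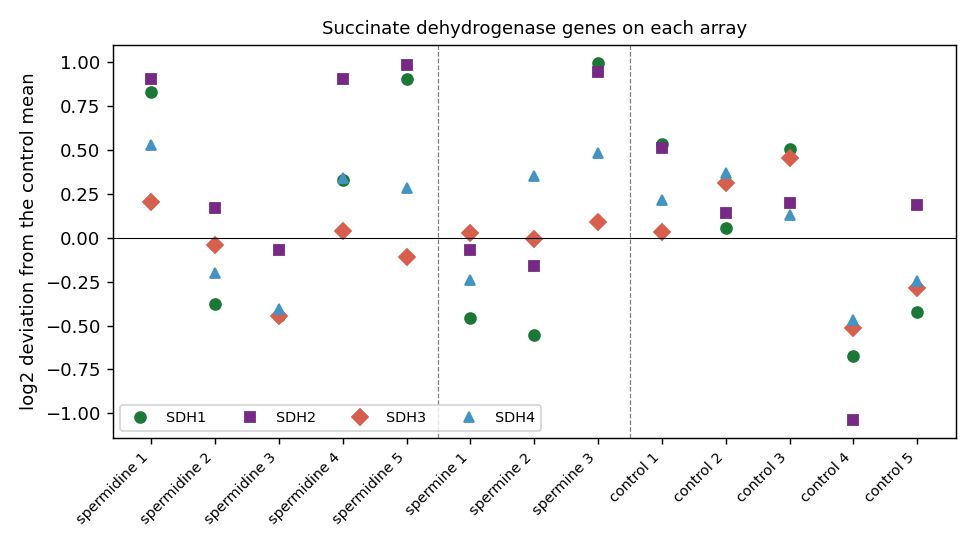
Log2 deviation of SDH1, SDH2, SDH3 and SDH4 from the control mean (y axis, quantile normalized signal) on each of the 13 arrays (x axis, dashed lines between groups). All 4 genes lie above the control mean on spermidine 1 and spermine 3 and below it on spermidine 3 and control 4, and each group holds arrays on both sides of it for SDH1.

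Spermine, which has an additional aminopropyl group, was compared with the same controls. Of the 35 genes, 0 were called by limma, and 0 had an unadjusted p under 0.05, against 8.49% of all genes, of which 0.0196% were called higher and 0 lower. The ranges of the spermine and control arrays overlapped for all 35, where 4.29% of all genes had a higher and 2.2% a lower range without overlap. The median of the members was -0.00 on the log2 scale and 0.02 for all genes. The extremes were ATP16 at -0.40 ± 0.25 (adjusted p = 0.727) and COX9 at 0.34 ± 0.17 (adjusted p = 0.63). A missed threshold with 3 spermine arrays does not show that the genes were at control level. The 95% intervals ran from -0.28 to 0.28 for QCR9, from -0.46 to 0.40 for NDE1, from -0.26 to 0.31 for COX6 and from -0.89 to 0.47 for CYT1. For 33 of the 35 genes the interval lay within 1 log2 unit of 0. The exceptions were NDI1 (-1.25 to 0.48) and SDH2, whose upper limit was just past it.

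The direct comparison of spermine with spermidine, a single pair of compounds whose doses are not stated, used the same spermidine arrays as above. Higher levels with spermine were called for 10 of 35 genes and lower levels for 0, where 9.43% of all genes were higher and 11.2% lower. The 10 were NDE1, CYT1, QCR7, QCR8, QCR9, QCR10, COX6, COX7, COX12 and ATP14. QCR10 had the largest difference, with a mean of 1242 ± 149 (SD, n = 3) with spermine and 549 ± 183 (SD, n = 5) with spermidine (log2 1.24 ± 0.25, interval 0.70 to 1.78, limma adjusted p = 0.00282). NDE1 had a mean of 5822 ± 940.4 with spermine and 2915 ± 647 with spermidine (log2 1.03 ± 0.20, limma adjusted p = 0.00207), and QCR9 a log2 difference of 0.84 ± 0.13 (adjusted p = 0.000452).

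COX12 was among the 10 but was not called against control. Its signals were 2736, 2685 and 3527 with spermine and 2244, 2518, 1859, 2116 and 2018 with spermidine (log2 0.48 ± 0.14, limma adjusted p = 0.0268), without overlap. ATP14 had signals of 1539, 1605 and 1731 with spermine and 1140.5, 925, 840.2, 1059.7 and 1148 with spermidine, also without overlap (log2 0.74 ± 0.16, limma adjusted p = 0.0043). Its second probe set did overlap, at 1360, 1239 and 1390 on the spermine arrays, with spermidine 1 at 1353 among them. The ATP14 call in this comparison was kept in all 26 alternative fits, among them that on probe set means. The ranges did not overlap for 8 of the 35 genes, all higher with spermine, against 12.5% of all genes. RIP1 and the SDH genes were among the 25 that were not called, RIP1 at 0.50 ± 0.24 (limma adjusted p = 0.153) and SDH1 at -0.25 (interval -1.14 to 0.64). Without control 2, control 3 and spermine 1, 9 of the 35 were called, where 9.15% of all genes were higher, and CYT1 was no longer among them (log2 0.89, adjusted p = 0.0643).

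**Figure D4:**
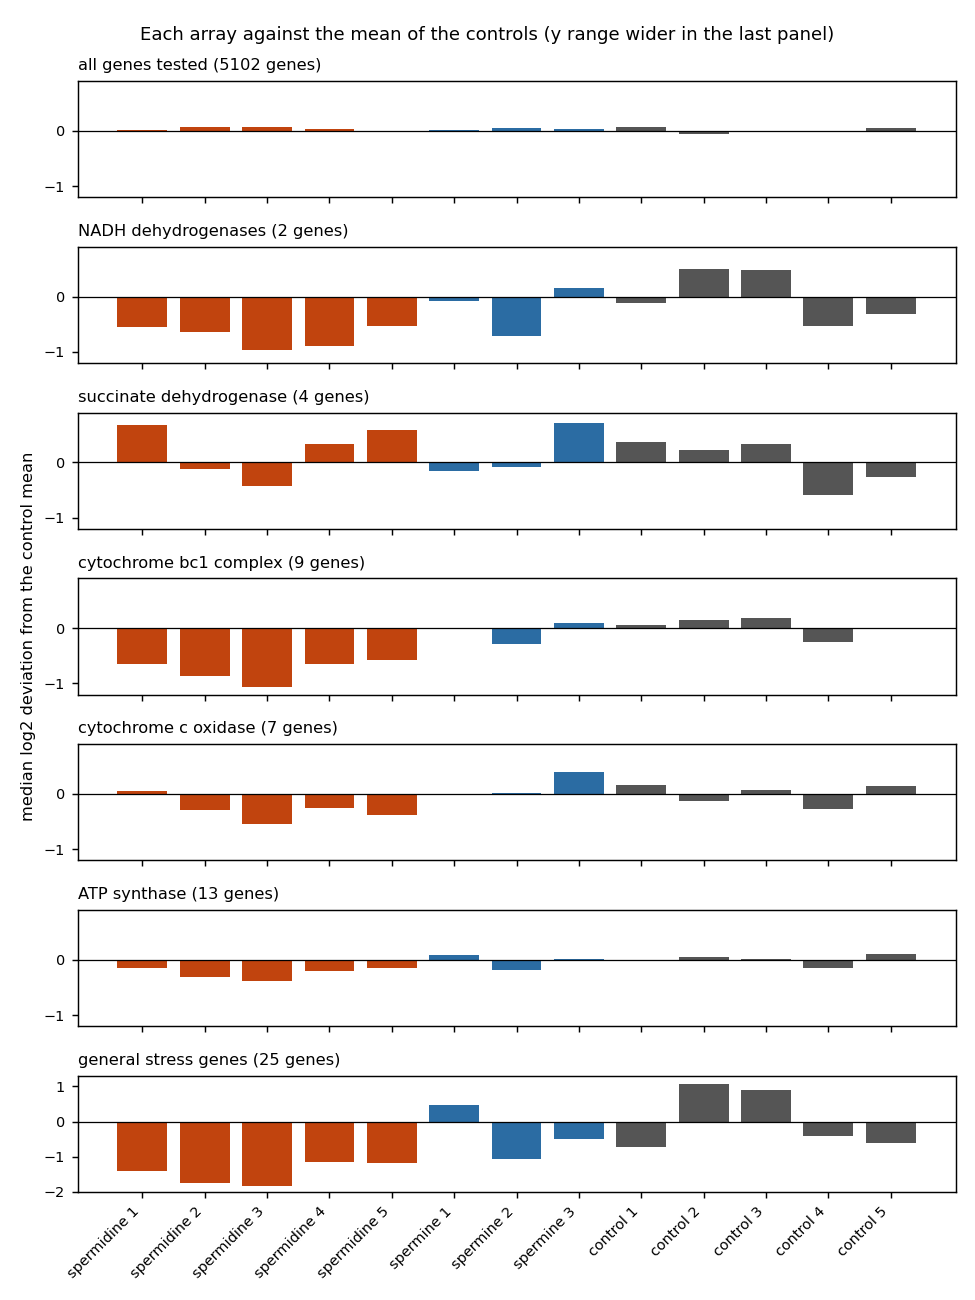
Median log2 deviation from the control mean (y axis, wider range in the last panel) of all genes tested, the tested members of each complex and 25 general stress genes, as 1 bar for each of the 13 arrays. The bc1 bars lie between -1.07 and -0.58 on the spermidine arrays, below the lowest control at -0.25. Controls 2 and 3 stand out in the stress genes and, through NDI1 and not NDE1, in the panel of NADH dehydrogenases.

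The array medians show how far each complex moved with the arrays that stand apart. For the bc1 complex they ran from -1.07 to -0.58 with spermidine, from -0.29 to 0.10 with spermine and from -0.25 to 0.18 in controls, with controls 2 and 3 the highest at 0.15 and 0.18. For the ATP synthase they ran from -0.38 to -0.15 with spermidine, from -0.19 to 0.08 with spermine and from -0.14 to 0.11 in controls. For the oxidase the spermidine arrays, at -0.54 to 0.06, overlapped the controls, at -0.27 to 0.17. Leaving out control 2, control 3 and spermine 1 changed the median difference with spermidine to -0.66 for the bc1 complex, -0.26 for the oxidase, -0.24 for the ATP synthase, -0.39 for the NADH dehydrogenases and 0.36 for succinate dehydrogenase. The NADH dehydrogenase value averages -1.06 for NDE1 and 0.28 for NDI1. The plot of each gene with and without these arrays shows the largest shift for NDI1.

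**Figure D5:**
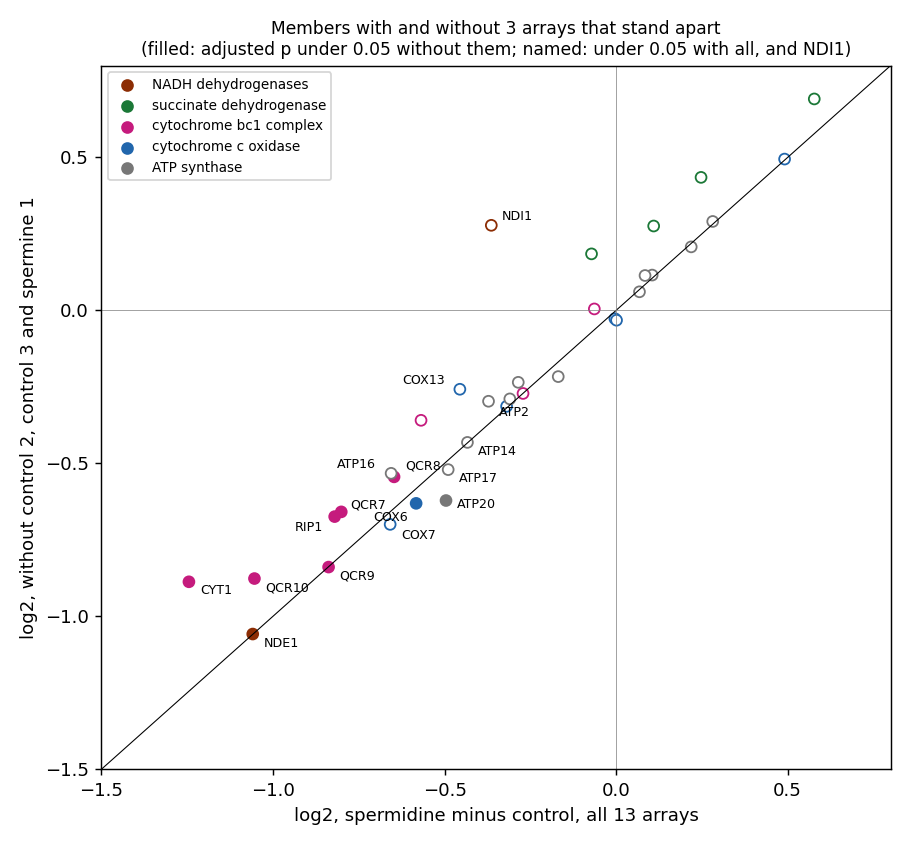
Log2 difference of the 35 genes with spermidine against control, over all 13 arrays (x axis) and without control 2, control 3 and spermine 1 (y axis), with the line of equality and filled markers where the adjusted p was under 0.05 without them. NDE1, QCR9 and COX6 lie close to the line, CYT1 and QCR10 above it, and NDI1 changes sign.

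Partners of these subunits were examined as lists. Of the subunits encoded in the mitochondrial genome, 5 of 7 could be tested and 0 were called with spermidine, with log2 differences of -0.05 for COX1, 0.50 for COX3, 0.13 for COB, -0.14 for ATP6 and 0.10 for OLI1. Against spermidine, spermine had a lower level of COX3 (-1.28 ± 0.35, limma adjusted p = 0.0171). Of 4 genes of cytochrome c and oxidase subunit isoforms, 2 fell with spermidine, where 14.7% of all genes fell. CYC1, the main cytochrome c gene, had signals of 2498, 2677, 1972, 1981 and 2297 on the spermidine arrays, against 5247, 3751, 4176, 3778 and 4654 on the control arrays, without overlap (log2 -0.92 ± 0.13, limma adjusted p = 9.51e-05), and CYC7, the minor isoform, had a log2 difference of -2.99. COX5A and COX5B, alternative subunits of the oxidase, were not called at -0.28 and 0.14. Without the 3 arrays COX5A was at -0.42 and COX5B at 0.72, the second just short of the threshold (limma adjusted p = 0.0501).

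Genes of the synthesis and function of coenzyme Q, the carrier between the dehydrogenases and the bc1 complex, formed a further list. Of its 10 genes 4 rose and 0 fell with spermidine (median log2 0.53), where 17.9% of all genes rose and 14.7% fell. COQ6, a monooxygenase of the pathway, had signals of 749, 579.7, 587, 1031 and 632 on the spermidine arrays, 235, 290.0 and 273 on the spermine arrays and 292, 237, 291, 218 and 299.9 on the control arrays, and the spermidine arrays all lay above all others (log2 1.38 ± 0.16, limma adjusted p = 1.69e-05). COQ10, COQ1 and COQ7 rose by 0.77, 0.75 and 0.71 on the log2 scale, and without the 3 arrays 5 of the 10 rose, against 16.5% of all genes, COQ10 no longer among them at 0.40 (limma adjusted p = 0.0913). Of 44 assembly and translation factors 7 rose and 6 fell (median log2 0.06), shares near the 17.9% and 14.7% of all genes. COX19, a factor of oxidase assembly in the intermembrane space, had signals of 116, 102, 110.2, 102 and 123 on the spermidine arrays, against 266, 327, 429, 280.1 and 248 on the control arrays (log2 -1.49 ± 0.16, limma adjusted p = 8.71e-06). COX10 and PET117, also needed for the oxidase, rose by 0.98 and 0.97, and COX16 by 0.79. Without the 3 arrays 11 of the 44 rose and 2 fell, against 16.5% and 13.8% of all genes in that fit.

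Among 4 proteins that bind the ATP synthase, INH1, which inhibits ATP hydrolysis by the enzyme, fell with spermidine (log2 -0.90 ± 0.19, limma adjusted p = 0.00209) and had a log2 difference of 0.27 with spermine, which was not called. Without the 3 arrays ATP19, a small subunit associated with the enzyme, was called lower as well (log2 -0.65, adjusted p = 0.00904), against -0.36 with all arrays (adjusted p = 0.258). Of 4 other electron donors tested, GUT2, the mitochondrial glycerol phosphate dehydrogenase, fell (log2 -1.79 ± 0.42, adjusted p = 0.00495). Of 5 nucleotide and phosphate carriers, the phosphate carrier gene MIR1 rose by 0.35 (adjusted p = 0.0386), a call lost without the 3 arrays (adjusted p = 0.147). Over all genes 14.7% fell and 17.9% rose, so a single call in lists this short says little about the list. SHH4, the only tested paralog of a succinate dehydrogenase subunit, was not called at -0.72, nor without the 3 arrays at -0.17.

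Of 12 tested regulators of respiratory genes, 5 fell and 1 rose with spermidine, where 14.7% of all genes fell and 17.9% rose. HAP4, the activating subunit of the CCAAT-binding complex that drives transcription of respiratory genes, had signals of 380.4, 703, 469, 188 and 289.9 on the spermidine arrays, 1206, 564 and 1084 on the spermine arrays and 1411, 1738, 1473, 783 and 994 on the control arrays. All spermidine arrays lay below all controls. HAP4 fell by 1.76 on the log2 scale (SE 0.35, limma adjusted p = 0.00149), and its log2 difference was -1.51 without the 3 arrays (adjusted p = 0.0154). With spermine it had -0.45 ± 0.41 and was not called. HAP2, HAP3 and HAP5, the DNA-binding partners, were not called, at 0.19, -0.11 and -0.33, nor was the heme-responsive activator HAP1, at 0.05. The repressor genes ROX1 and MIG1 fell by 1.82 and 0.95 on the log2 scale, ROX1 repressing hypoxic genes and MIG1 glucose-repressed genes. MOT3, a second repressor of hypoxic genes, fell by 0.62, RTG1, a factor of the retrograde pathway from mitochondria to nucleus, fell by 0.46, and its partner RTG3 rose by 0.50 on the log2 scale. Without the 3 arrays 4 of the 12 fell and 1 rose, against 13.8% and 16.5% of all genes. RTG1 was then not called, with a log2 difference of the same size, -0.46 (limma adjusted p = 0.111). HAP2 was at 0.41 in that fit (adjusted p = 0.0559). With spermine, 0 genes of these lists were called against control.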

How the data were processed

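Per the submitters' processing notes, the deposited signal intensities were made with MAS5, with no version stated. The values give a 2% trimmed mean of 500 on each array, so the authors' values carry 1 scaling factor per array. Of 9335 probe sets 60 controls were left out, and the platform annotation gave 6504 a single gene, 328 more than 1 and 2443 no gene. The names COQ7 and YJL045W were matched through a synonym and a locus tag. All probe sets were quantile normalized and taken to log2 without a pseudocount. The dimmest 25% by mean log2 were dropped (signals below 37.9), and each gene was read from its brightest probe set.

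Group means over all 13 arrays were fitted with limma 3.58.1 in R 4.3.3, using a trend of variance on intensity, adjusted by Benjamini-Hochberg over 5102 genes and tested on simulated data. Signals and SDs are deposited values, log2 differences come from normalized values, and ± after a log2 value is the SE. Members and lists were chosen with earlier results of these data known. Full values went to the extremes of each complex, called genes over 0.75 in size or without overlap, and the pair NDE1 and NDE2. Array values of other members, and context genes that were not called or beyond the 4 of largest size in a list, were given after their values were seen. The promoter motif search planned was not run, and promoter sequences were not used here. Figures used matplotlib 3.10.9 in Python 3.11.15. Alternatives were other normalizations, pseudocounts of 16 and 64, other filters, probe set means, fits on 2 groups alone, weighted arrays, no variance trend, a replicate block and each array left out. Fits without control 2, control 3 and spermine 1, or with these as a block, were added with earlier results known.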

Additional observations from a re-analysis of the deposited data

Results flagged for a closer look

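Over the 36 genes and the groups of 5 arrays, 72 sets of log2 values were examined for a single array far from the others. In 1 of them, SDH2 in controls, control 4 lay so far below the other 4 that its gap was 0.764 of the group's whole range, above the critical value of 0.71. Its signal was 249, against 566 to 757 on the other controls. Chance gives such a gap in about 1 of 20 sets, so 1 in 72 is no more than chance would give. Without control 4 the SDH2 difference with spermidine was 0.32 on the log2 scale (limma adjusted p = 0.389), beside 0.58 with all arrays, and was called in neither.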

How the results depend on the processing

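Of the 15 genes that fell with spermidine, 7 kept the call in all 26 alternative fits, namely NDE1, CYT1, RIP1, QCR7, QCR9, QCR10 and COX6, and 0 called values reversed. Of the 10 that were higher with spermine than with spermidine, 7 kept it. The count of falls was 9 to 16 with single arrays left out and 9 without control 2, control 3 and spermine 1. That of rises was 0 to 1 with single arrays left out (ATP7 without spermidine 2, COX8 without spermidine 3) and 1 with array weights, again COX8. The labels state no pairing by replicate number. Of 11 same-numbered pairs of arrays, 1 had deviations correlated above 0.1, and the lowest r was -0.57, for spermine 1 with control 1. Of 5 spermidine arrays, 1 correlated best with the control of its own number. These deviations are taken from means of 3 or 5 arrays, so they cannot show whether same-numbered arrays shared a batch. With the replicate number as a block, 8 members fell (6 bc1 genes, 1 oxidase gene, 1 NADH dehydrogenase and 0 ATP synthase genes). These falls are for spermidine against control, for which no count over all genes with the block is given here. In the other comparisons, 622 of all genes then differed between spermine and spermidine where 1051 did without the block. Between spermine and control, 2 differed with the block. Whether the smaller count of falls is particular to the members was not tested. The genes called over all genes with spermine numbered 46 with array weights, 17 with the 3 arrays as a block, 0 to 4 with single arrays left out and 1 in the fit reported. The members' median with spermidine stayed between -0.39 and -0.28 with single arrays left out. With 5, 3 and 5 arrays and standard errors of 0.11 to 0.36 on the log2 scale in the spermidine comparison, small differences such as those of most ATP synthase genes lie near what the test can call.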

Other observations

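Among controls, control 4 had the lowest median over the members, -0.27 on the log2 scale, and spermidine 3 the lowest of the spermidine arrays, -0.47. The spermine arrays had medians between -0.22 and 0.14. For the regulators the array medians ran from -0.58 to -0.19 with spermidine and from -0.21 to 0.08 in controls. Those of the coenzyme Q genes ran from 0.37 to 0.65 with spermidine and from -0.28 to 0.17 in controls. In a fit without the filter on dim probe sets, NDE2 had a log2 difference of 0.47 ± 0.72 (SE, limma adjusted p = 0.659) with spermidine.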
